A study of Mus musculus with 4 samples.

Results

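The S100 genes encode small calcium-binding proteins, and 7 of them (S100a1, S100a4, S100a6, S100a10, S100a11, S100a13 and S100a16) are described here across 4 RNA immunoprecipitation libraries of mouse cells. All 7 had values, out of 12967 gene symbols in the deposited values, and transcripts of each symbol were summed. The set was chosen by its measured values: S100a4 was lower in shCerS4 cells, and S100a11 had one of the highest ratios of Caprin-1 over IgG in shSCR cells. Values of those comparisons are therefore given as a description. Of the 7, 6 members reached the minimum mean level used for comparisons, which was 5 CPM (a gene's reads scaled to the library total, so that every library has the same sum), and S100a16 did not.

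The cells were 4T1, a mouse mammary carcinoma line, grown with puromycin and stably carrying either the SCR shRNA as control (called shSCR here) or the CerS4 shRNA (shCerS4), whose target is the gene of a ceramide synthase. RNA was recovered with an antibody to Caprin-1, an RNA-binding protein, or with IgG as background, which gave 1 library for each of the 4 combinations. The stated aim was to learn how the PD-L1/Caprin-1 complex relates to mRNA binding when lipid metabolism is altered. With 1 library per group nothing below has a replicate check, no test was made, and whether each line was 1 clone was not given in the sources used here. Brackets hold 95% counting intervals, which cover counting error between these libraries only; whether molecular barcodes were used is not given in the sources used here. Estimated depths were 19.7 to 27.0 Mreads (megareads). CerS4 itself had no values here, so the knockdown could not be checked.

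S100 proteins carry a pair of EF-hand calcium-binding loops and mostly act as dimers. Calcium opens a surface that binds target proteins such as annexins, cytoskeletal motors and p53, and some members are also secreted and signal through receptors such as RAGE. S100a4, also called metastasin or fibroblast-specific protein, was first studied in metastatic mouse mammary tumours. S100a10 is the exception in the family, since its loops no longer bind calcium and it sits in a complex with annexin A2.

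All 7 members lie on mouse chromosome 3 (build GRCm38, RefSeq annotation). S100a1 (90511034 to 90514330), S100a13 (90514233 to 90524581), S100a16 (90537254 to 90543151), S100a4 (90603770 to 90606045) and S100a6 (90612894 to 90614414) form a cluster. S100a11 (93520496 to 93526288) and S100a10 (93555117 to 93564645) lie 2.91 Mb further on. The reference also lists a pseudogene, S100a11-ps, whose sequence was not compared with that of S100a11. Reads of S100a11 could be shared with it, which was not tested, and the S100a11 values are uncertain to that extent. The gene spans of the 7 members are short, from 1.52 kb for S100a6 to 10.3 kb for S100a13, against a median of 23.5 kb over the compared genes.

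Promoter windows of 300 bases, 250 before and 50 after an annotated start, were given for 6 of the 7 members (all but S100a10). S100a11 is shown because it had the highest Caprin-1 over IgG ratio of the members, and S100a4 and S100a6 because they start 9.12 kb apart, yet their levels stood in different relation between the cell lines. Capitals mark a TATA box (TATAAA), an E-box (CACGTG) or a CCAAT box (CCAAT), searched on both strands. They also mark, where these occur in a window, an AP-1 site (TGACTCA) and a GC box (GGGCGG), searched in the same way. The S100a4 window is chr3:90603520-90603819 and the S100a6 window chr3:90612644-90612943, and that of S100a11 chr3:93520246-93520545, all on the plus strand.
S100a4: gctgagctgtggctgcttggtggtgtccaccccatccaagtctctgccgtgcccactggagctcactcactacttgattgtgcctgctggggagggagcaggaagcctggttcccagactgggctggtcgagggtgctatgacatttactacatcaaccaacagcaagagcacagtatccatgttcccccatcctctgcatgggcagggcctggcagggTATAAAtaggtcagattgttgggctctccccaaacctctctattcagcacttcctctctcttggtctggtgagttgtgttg
S100a6: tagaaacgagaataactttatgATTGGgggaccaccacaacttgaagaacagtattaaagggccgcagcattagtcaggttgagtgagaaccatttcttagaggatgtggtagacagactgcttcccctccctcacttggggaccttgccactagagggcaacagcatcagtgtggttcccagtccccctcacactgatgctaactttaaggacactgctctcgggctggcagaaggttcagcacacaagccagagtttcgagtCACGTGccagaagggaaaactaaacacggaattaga
S100a11: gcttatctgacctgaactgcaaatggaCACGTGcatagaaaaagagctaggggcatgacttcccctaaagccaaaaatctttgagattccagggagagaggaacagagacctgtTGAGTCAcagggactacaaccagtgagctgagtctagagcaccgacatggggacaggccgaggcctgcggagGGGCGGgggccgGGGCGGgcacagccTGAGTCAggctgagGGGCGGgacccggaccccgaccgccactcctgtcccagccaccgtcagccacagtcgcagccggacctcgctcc
The S100a4 window holds TATAAA starting 31 bases before the start, a motif found in 13.6% of the 32851 RefSeq windows of this length. The S100a6 window has no TATAAA, holds the CCAAT box on the reverse strand (37.4% of windows) and has CACGTG starting at base 15 after the start (7.15% of windows). Matches describe letters only and show no binding. The S100a11 window holds the AP-1 letters on the reverse strand, 136 and 38 bases before the start (5.20% of windows), GC boxes at 64, 52 and 24 bases before it (35.7% of windows) and an E-box at 223 bases before it.

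S100a1 and S100a13 are transcribed away from each other, and the annotated start sites of their windows lie 105 bases apart. Their gene records overlap by 98 bases on opposite strands. How strand was treated is not given in the sources used here, so reads from the overlap could belong to either gene. The S100a13 window (chr3:90514185-90514484, plus strand) is shown with the 204 bases it shares with the S100a1 window in capitals; none of the 5 motifs was found in it.
S100a13: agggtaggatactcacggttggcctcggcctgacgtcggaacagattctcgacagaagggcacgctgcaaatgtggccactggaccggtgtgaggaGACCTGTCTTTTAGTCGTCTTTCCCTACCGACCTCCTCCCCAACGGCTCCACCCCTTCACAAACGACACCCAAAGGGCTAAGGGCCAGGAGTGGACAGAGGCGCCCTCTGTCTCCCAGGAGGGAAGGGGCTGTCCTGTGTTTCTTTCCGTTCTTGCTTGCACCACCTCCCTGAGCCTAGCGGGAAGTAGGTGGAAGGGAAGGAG

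The levels, in CPM, set S100a4 apart between the cell lines and S100a11 apart between the precipitates. Levels are compared within a gene only, because they are not per transcript length. S100a4, which encodes a promoter of cell motility that binds non-muscle myosin, stood at 568 CPM with IgG and 871 with Caprin-1 in shSCR cells, and at 179 and 222 CPM in shCerS4 cells. Both shCerS4 libraries were below both shSCR libraries, and the libraries held 3530 to 23553 estimated reads of the gene. S100a6 (calcyclin), a partner of the ubiquitin-linked protein CacyBP, stood at 1041 and 1956 CPM in shSCR and at 1028 and 1508 in shCerS4 cells, in the same order. Its Caprin-1 libraries were the high ones, and its IgG libraries were alike.

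S100a11, which binds annexin A1 and takes part in membrane repair and keratinocyte growth control, stood at 116 CPM with IgG and 338 with Caprin-1 in shSCR cells, and at 108 and 225 CPM in shCerS4 cells. Both Caprin-1 libraries were above both IgG libraries. S100a10, the annexin A2 ligand that also binds plasminogen at the cell surface, stood at 199, 313, 227 and 327 CPM in that order. It too was higher in both Caprin-1 libraries, with little distance between the cell lines.

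The remaining members had fewer reads. S100a1, known for its action on calcium pumps in heart muscle, stood at 36.5 CPM with IgG and 30.2 with Caprin-1 in shSCR cells, and at 35.1 and 41.7 CPM in shCerS4 cells. S100a13, which helps export IL-1α and FGF1 without a signal peptide, stood at 7.97, 14.8, 8.79 and 9.77 CPM. The shSCR Caprin-1 library was thus the lowest of the set for S100a1 and the highest for S100a13. S100a16, a widely expressed member with a weak calcium response, stood at 2.96, 2.14, 2.03 and 2.31 CPM (40 to 59 estimated reads), and its 4 counting intervals overlapped. The 7 genes together took 0.197%, 0.352%, 0.159% and 0.234% of the reads.

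**Figure D1:**
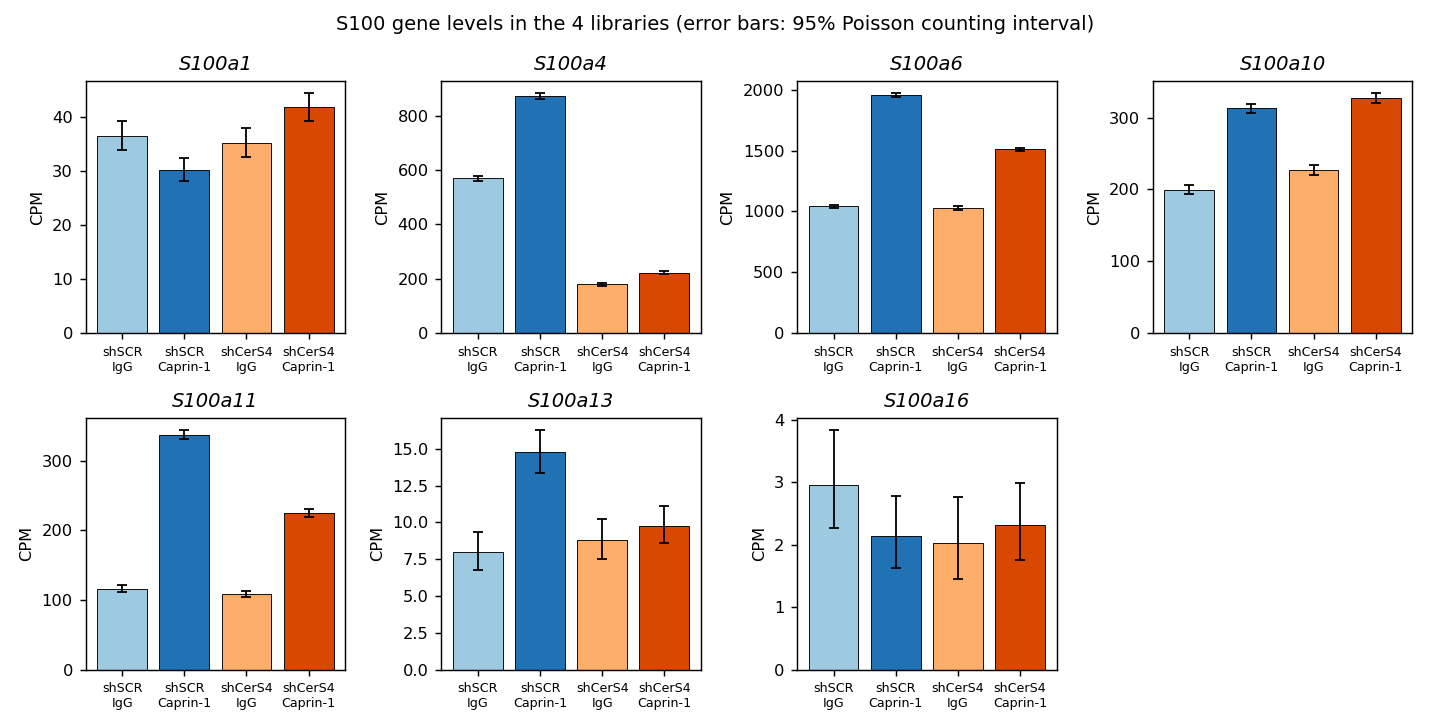
Level of each S100 gene in CPM (linear axis from 0, a separate scale per gene) in the 4 libraries, 1 library per bar, with 95% Poisson counting intervals as error bars. S100a4 is low in both shCerS4 libraries (179 and 222 CPM against 568 and 871), and S100a11 is high in both Caprin-1 libraries (338 and 225 CPM against 116 and 108).

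The study's primary comparison set the Caprin-1 precipitate of shCerS4 cells against that of shSCR cells. S100a4 was 3.92-fold lower in shCerS4 cells, a log2 ratio of −1.97 [−2.02, −1.93], and it was the member past 2-fold with an interval off 0. That is 1 of 6 compared members lower and 0 higher, where 4.95% of the 10283 compared genes were lower and 6.25% higher past 2-fold; since S100a4 was picked on this ratio, nothing is read from the count. Of all compared genes, 0.759% had a ratio as low or lower. The next members were S100a13 at −0.59 [−0.83, −0.36] and S100a11 at −0.59 [−0.63, −0.54], about 1.5-fold lower and outside the threshold. S100a6 stood at −0.37 [−0.39, −0.36]. S100a1 stood on the other side, at 0.47 [0.33, 0.60]. S100a10 stood at 0.06 [0.02, 0.11], and its sign turned to −0.08 with trimmed-mean scaling, −0.06 with median-of-ratios and −0.04 with upper-quartile scaling.

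The median of the 6 members was −0.48, beside 0.15 over all compared genes. Scaling moves such values together: trimmed-mean scaling took the median of all genes from 0.15 to 0.005 and the shares of genes past 2-fold to 4.30% higher and 6.21% lower. Relative to the median of all genes S100a4 stood at −2.12, S100a13 and S100a11 at −0.74 and −0.73, S100a6 at −0.52 and S100a1 at 0.32.

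The choice of S100a4 did not name a precipitate, so its IgG values are a description as well. In the IgG precipitates S100a4 was again lower in shCerS4 cells, by 3.17-fold, a log2 ratio of −1.66 [−1.72, −1.61]. Again 1 of 6 members was lower past 2-fold and 0 were higher, beside 5.34% and 5.69% of all compared genes (6.03% and 4.62% with trimmed-mean scaling). The other members lay close to 0. S100a6 stood at −0.02 [−0.05, 0.01], S100a1 at −0.05 [−0.21, 0.10], S100a11 at −0.10 [−0.19, −0.02], S100a13 at 0.14 [−0.18, 0.46] and S100a10 at 0.19 [0.13, 0.25]. The members' median was −0.04 against 0.10 over all genes. The lower S100a4 level of shCerS4 cells, for which it was picked, was present with the Caprin-1 antibody and with IgG. S100a6, S100a11 and S100a13 lay nearer to 0 with IgG than with Caprin-1.

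Ratios within a library do not depend on scaling. S100a4 had 0.546 CPM for each CPM of S100a6 in shSCR IgG and 0.446 in shSCR Caprin-1, against 0.175 in shCerS4 IgG and 0.147 in shCerS4 Caprin-1. This ratio was 3.13-fold lower in shCerS4 cells with IgG and 3.03-fold lower with Caprin-1. Since S100a4 was picked for being lower in shCerS4 cells, nothing is read from this lower ratio.

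**Figure D2:**
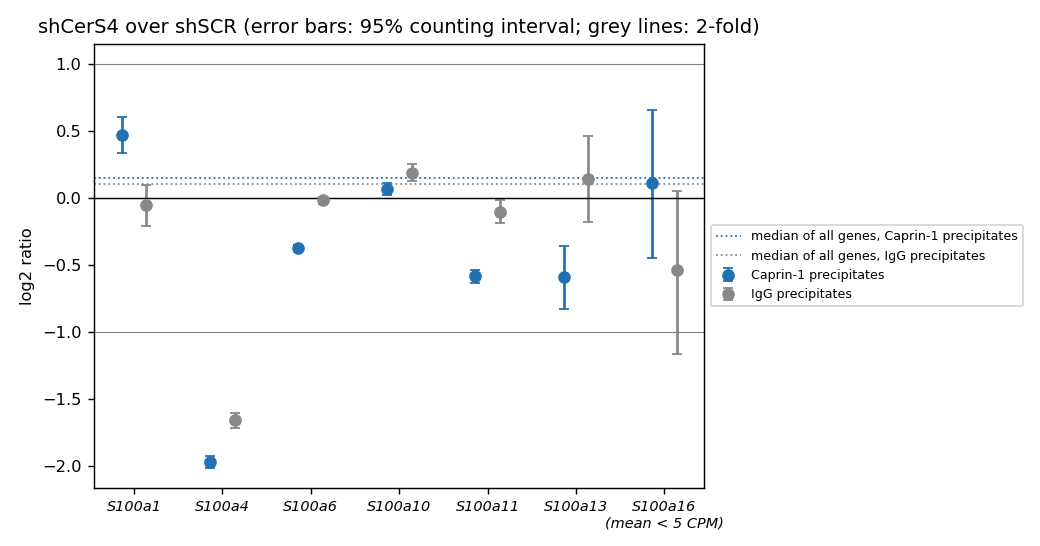
Log2 ratio of shCerS4 over shSCR for each S100 gene (y axis, no unit) in Caprin-1 precipitates (blue) and IgG precipitates (grey), 1 library against 1, with 95% counting intervals; dotted lines are medians of all compared genes and thin grey lines mark 2-fold. S100a4 lies at −1.97 and −1.66, and no other member is past 2-fold.

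The S100a4 values were next set beside those of other genes near the members. Within 500 kb of a member, 14 other genes were compared, all of them around the S100a1 cluster and none near S100a11 and S100a10. Their starts lay at −604 to −105 kb from the start of S100a4, so all were on its S100a1 side and none beyond S100a6. In the Caprin-1 precipitates 1 of the 14 was lower past 2-fold and 0 were higher, beside 4.95% and 6.25% of all compared genes. The 14 had a median of −0.07 and a range of −1.31 to 0.71. The lowest was Snapin, which encodes a SNARE-associated protein, at −1.31 with Caprin-1 and −0.76 with IgG (named after its value was seen). The gene next to S100a4 is S100a3, another S100 gene, which stood at 0.38 [0.17, 0.59] with Caprin-1 and 0.64 [0.30, 0.99] with IgG. Chtop, which encodes a chromatin and mRNA export factor and lies beside S100a1 at the other end of the cluster, stood at 0.30 and 0.60. In the IgG precipitates the neighbours ranged from −0.76 to 0.67, with 0 past 2-fold, beside 5.34% lower and 5.69% higher over all compared genes. The neighbour counts are near the shares over all genes, and nothing is read from them. S100a4 was lower than each of the 14 neighbours, S100a3 and S100a6 in both precipitates. Since S100a4 was picked for being lower in shCerS4 cells, nothing is read from this order.

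**Figure D3:**
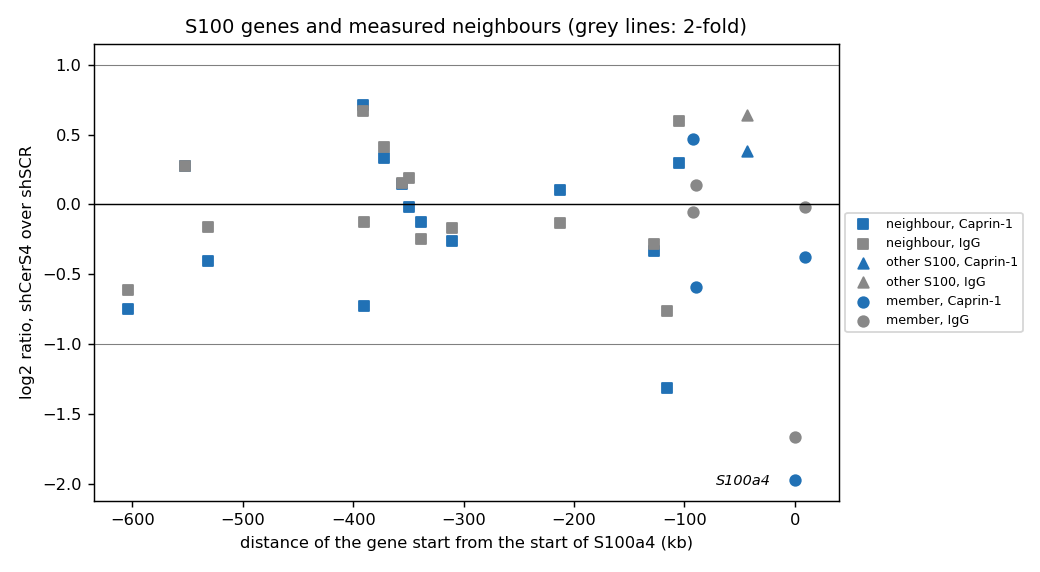
Log2 ratio of shCerS4 over shSCR (y axis) against the distance of each gene start from the start of S100a4 in kb (x axis) for the S100 genes of the cluster that were compared (circles, and a triangle for S100a3) and 14 neighbours (squares), in Caprin-1 (blue) and IgG (grey) precipitates, 1 library against 1. S100a4, picked for being lower in shCerS4 cells, is the lowest point in both colours, at −1.97 and −1.66. S100a6 beside it lies at −0.37 and −0.02.

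Genes with a profile like that of S100a4 were sought among 7623 genes at a mean level of 20 CPM or more, by Euclidean distance of centred log2(CPM + 1) values over the 4 libraries. The nearest were Birc5, which encodes survivin (distance 0.17), the kinase gene Melk (0.25) and the mitotic kinase gene Aurkb (0.25). Birc5 stood at 146 CPM with IgG and 218 with Caprin-1 in shSCR cells, and at 39.6 and 50.2 CPM in shCerS4 cells. These distances rest on 4 libraries. For S100a11 the nearest were Gapdh (0.24), the selenoprotein gene Selenoh (0.29) and the RNA polymerase subunit gene Polr1c (0.30). Gapdh stood at 283, 658, 239 and 455 CPM in the same order.

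Caprin-1 precipitates were then compared with IgG precipitates of the same cells, to see which S100 mRNAs took a larger share of the reads with Caprin-1. In shSCR cells S100a11 was 2.90-fold higher, at a log2 ratio of 1.54 [1.47, 1.60], and 0.126% of compared genes had a ratio as high or higher. S100a6 followed at 0.91 [0.89, 0.93] and S100a13 at 0.89 [0.62, 1.16]. S100a10 stood at 0.65 [0.60, 0.71] and S100a4 at 0.62 [0.58, 0.65]. S100a1 stood alone on the other side at −0.27 [−0.42, −0.13]. Past 2-fold 1 of 6 members was higher and 0 were lower, beside 1.69% and 13% of all compared genes; S100a11 was picked on this ratio. With trimmed-mean scaling 4.84% of genes were higher and 8.28% lower, and 3 members were higher past 2-fold, S100a6 (1.11) and S100a13 (1.09) joining S100a11. The same 3 were past 2-fold with median-of-ratios and with upper-quartile scaling.

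In shCerS4 cells, whose libraries are not those of that choice, S100a11 was again the highest member, 2.08-fold higher with Caprin-1 at 1.05 [0.98, 1.13], and 0.642% of compared genes had a ratio as high or higher. The interval of S100a11 reaches just below 2-fold. S100a6 stood at 0.55 [0.53, 0.58], S100a10 at 0.53 [0.47, 0.58], S100a4 at 0.31 [0.25, 0.37], S100a1 at 0.25 [0.11, 0.39] and S100a13 at 0.15 [−0.14, 0.44]. As in shSCR cells, 1 of 6 members was higher past 2-fold and 0 were lower, beside 0.934% and 8.02% of all compared genes (2.11% and 5.51% with trimmed-mean scaling). All these comparisons draw on the same 4 libraries, so they are not independent of each other.

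Gene span moves with this ratio, and the S100 genes are short. The members' medians were 0.77 in shSCR and 0.42 in shCerS4 cells, against −0.13 and −0.11 over all compared genes. Over the 2458 other genes with a span between the shortest and the longest member, the medians were 0.30 and 0.22, and 4.15% and 2.16% of them were higher past 2-fold. The part of gene span in the members' values was not tested. S100a11 had 0.112 CPM for each CPM of S100a6 with IgG and 0.173 with Caprin-1 in shSCR cells, and 0.105 and 0.149 in shCerS4 cells. This ratio, which no scaling changes, was 1.54-fold and 1.42-fold higher with Caprin-1.

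**Figure D4:**
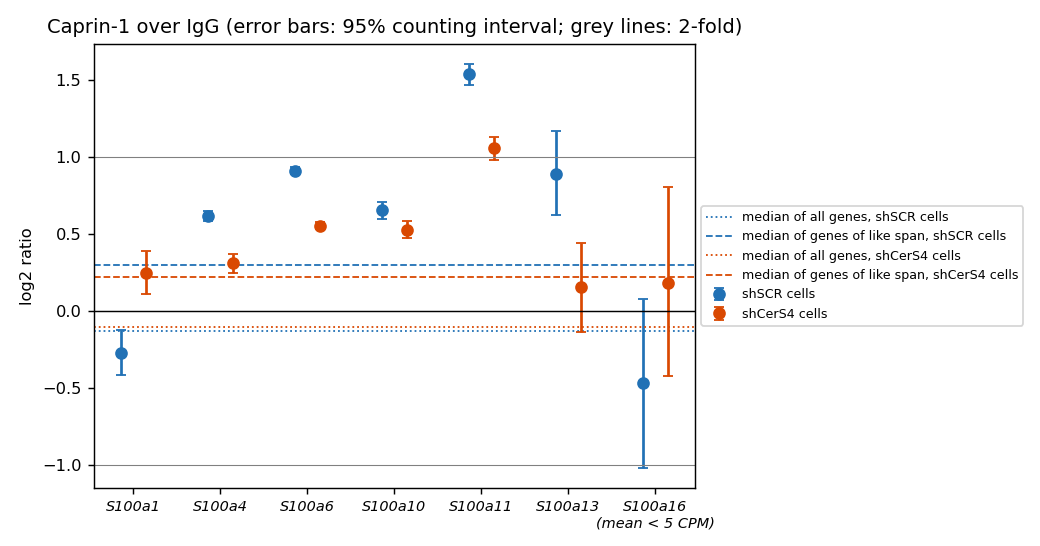
Log2 ratio of Caprin-1 over IgG for each S100 gene (y axis) in shSCR (blue) and shCerS4 cells (orange), 1 library against 1, with 95% counting intervals; dotted lines are medians of all compared genes, dashed lines medians of genes with a span in the members' range, and thin grey lines mark 2-fold. S100a11 is highest in both cell lines (1.54 and 1.05), and S100a1 lies at −0.27 and 0.25.

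The last comparison took the Caprin-1 over IgG ratio of shCerS4 cells minus that of shSCR cells. Of the 6 members 5 lay below 0 and S100a1 above it, where 56.0% of all compared genes lay above 0. The difference contains the shSCR ratio on which S100a11 was picked and the shCerS4 over shSCR ratio on which S100a4 was picked, so nothing is read from this count or from the median. The values were −0.74 [−1.12, −0.35] for S100a13, −0.48 [−0.58, −0.38] for S100a11, −0.36 [−0.39, −0.32] for S100a6, −0.31 [−0.38, −0.24] for S100a4, −0.12 [−0.20, −0.05] for S100a10 and 0.52 [0.32, 0.72] for S100a1. None was past 2-fold (0 of 6 in either direction), beside 0.632% of compared genes higher and 0.35% lower (0.467% and 0.477% with trimmed-mean scaling). The median of the members was −0.33, against 0.04 over all genes and −0.07 over genes in the same span range. S100a1 and S100a13, which start next to each other, thus stood at opposite ends. S100a1 had 4.58 CPM per CPM of S100a13 with IgG and 2.04 with Caprin-1 in shSCR cells, and 3.99 and 4.27 in shCerS4 cells. The shSCR Caprin-1 library alone was low in this ratio, with 815 estimated reads of S100a1 and 399 of S100a13.

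Beyond the 7 members, 4 of the 18 S100 family genes of the reference had values, and 7 had none here (S100a2, S100a5, S100a7a, S100a9, S100a7l2, S100z and S100g). S100a3, a cysteine-rich member of hair follicles, had a mean over the 5 CPM minimum, at 6.0 CPM with IgG and 12.6 with Caprin-1 in shSCR cells, and at 9.35 and 16.4 CPM in shCerS4 cells. It was higher with Caprin-1 than IgG in both cell lines, at 1.06 [0.76, 1.38] and 0.81 [0.55, 1.07]. S100b, the glial member on chromosome 10, stood at 15.5, 0.925, 2.90 and 0.649 CPM in that order. It passed the minimum through the shSCR IgG library alone, which is also the library its shSCR ratio is taken against. Its Caprin-1 over IgG ratios were −4.04 [−4.72, −3.48] in shSCR and −2.13 [−3.06, −1.34] in shCerS4 cells. The shCerS4 ratio rests on 57 estimated reads with IgG and 16 with Caprin-1. Both were opposite in sign to those of S100a11, and nothing is read from this.

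S100a14, an epithelial member, had few reads. It stood at 0.605 and 0.851 CPM in the shSCR IgG and Caprin-1 libraries and at 2.95 and 2.39 CPM in those of shCerS4 cells, with 12 to 59 estimated reads. S100a8, the calprotectin subunit of myeloid cells, had no reads in the shSCR libraries, and 7 reads with IgG and 14 with Caprin-1 in shCerS4 cells. Against a floor of 3 reads per library it was at least 2.35-fold higher with IgG and at least 5.11-fold higher with Caprin-1, if 7 and 14 reads are taken as exact. With their counting error, the intervals of the log2 ratios reached down to 0.54 with IgG and 1.86 with Caprin-1.

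Partners and relatives of the S100 proteins were next set beside the S100a4 values. Annexins are calcium-dependent membrane proteins that S100 dimers bind, and 10 of 12 were compared. In each comparison 0 were past 2-fold. Between Caprin-1 precipitates 4.95% of all compared genes were lower and 6.25% higher, and with IgG 5.34% and 5.69%. For Caprin-1 over IgG 13% were lower and 1.69% higher in shSCR cells, and 8.02% and 0.934% in shCerS4 cells. For the difference of ratios these shares were 0.35% and 0.632%. With 10 genes compared, nothing is read from these counts of 0. The annexins' median between Caprin-1 precipitates was 0.30. Anxa5, the annexin with the highest mean level, stood at −0.05, and Anxa3 and Anxa4 were furthest from 0, at 0.81 and 0.61, with IgG values of −0.17, 0.85 and 0.67. Anxa2, the ligand of S100a10, stood at −0.42 with Caprin-1 and −0.32 with IgG, and Anxa1, the partner of S100a11, at 0.54 and 0.48. Anxa2, Anxa1, Myh9 and Cacybp are named as known partners and were picked after their values were seen. The annexins' Caprin-1 over IgG medians were 0.40 in shSCR and 0.46 in shCerS4 cells.

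Of 23 described partners, receptors and targets, 20 were compared, with a median of 0.07 between Caprin-1 precipitates. There 1 was higher past 2-fold and 0 were lower, beside 6.25% and 4.95% of all compared genes. This count is near the shares over all genes, so nothing is read from it. The higher gene was Il1a, a cytokine whose export S100a13 aids, at 4.01 [3.63, 4.44] and 3.75 [3.38, 4.16] with IgG. Il1a stood at 3.03 CPM with IgG and 2.04 with Caprin-1 in shSCR cells, and at 41.0 and 33.0 CPM in shCerS4 cells. It thus passed the 5 CPM minimum through the shCerS4 libraries alone, and nothing is read from its being past 2-fold. Ncl, which encodes nucleolin, a carrier of S100a11 to the nucleus, had the highest mean and stood at −0.45 and 0.23. The calcium pump gene Atp2a2 stood at 0.81 and 0.41. Myh9, the myosin heavy chain bound by S100a4, stood at 0.01 and −0.12, and Cacybp at 0.18 and 0.31. In the ratio of Caprin-1 over IgG 3 partners in shSCR and 4 in shCerS4 cells were lower past 2-fold, Myh9 among them at −1.31 and −1.18, and 0 were higher. The others were Myh10 and Ahnak in both cell lines and Ncl in shCerS4 cells. These are 3 and 4 of 20, beside 13% and 8.02% of all compared genes, so the shSCR count is near the share over all genes. The list was written with earlier results of these data known, so nothing is read from the shCerS4 count either. The RAGE gene Ager had no values here.

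Among 32 other EF-hand genes, 26 were compared. Between Caprin-1 precipitates Gca, which encodes grancalcin, was higher past 2-fold at 1.24 [0.90, 1.60], and Sri, which encodes sorcin, lower at −3.93 [−3.98, −3.87]. The median was 0.09, and Myl12a, the myosin light chain gene with the highest mean, stood at −0.02 [−0.05, −0.00]. In the IgG precipitates 1 was higher past 2-fold, Nucb2 at 1.10 [0.94, 1.27] (named after its value was seen). There 1 was lower, Sri at −3.75, and Gca stood at 0.89. Gca had 5.85 CPM with IgG and 3.74 with Caprin-1 in shSCR cells, and 10.9 and 8.84 CPM in shCerS4 cells. Its passing the 5 CPM minimum thus leaned on the shCerS4 libraries. Of all compared genes, 6.25% and 4.95% passed 2-fold these ways between Caprin-1 precipitates, and 5.69% and 5.34% with IgG. The counts of 1 are near those shares, so nothing is read from them. The Caprin-1 over IgG medians were 0.41 and 0.23, with 0 of 26 past 2-fold in either cell line. For shSCR, 13% of all compared genes lay lower past 2-fold and 1.69% higher. For shCerS4 the shares were 8.02% and 0.934%. With 26 genes compared, nothing is read from these counts of 0.

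Cell type markers were checked for the label of the cells and because S100a4 is also a fibroblast marker. All 5 epithelial markers had values, with summed levels of 4415 CPM with IgG and 7810 with Caprin-1 in shSCR cells, and 2930 and 4513 CPM in shCerS4 cells. Among them Krt8 was lower in shCerS4 cells at −1.30 with Caprin-1 and −1.12 with IgG, Krt18, the most abundant in reads, stood at −0.85 and −0.64, and Cdh1, which encodes E-cadherin, stood at 1.06 and 0.69. Epcam stood at 0.12 and 0.28 and Krt19 at 0.35 and 0.34, so 3 of the 5 lay above 0 in both precipitates, and the medians of the list were 0.12 and 0.28. Of 6 fibroblast markers 4 had values, summed at 66.9, 24.4, 43.7 and 20.1 CPM, most of it Pdgfra, which stood at −0.29 and −0.58. Pdgfrb and Dcn had no values here, and Col1a1 was at most 5.14 CPM. Of 6 leukocyte markers 3 had values, summed at 26.0 to 49.1 CPM in shSCR and at most 16.01 CPM in shCerS4 cells, most of it Cd68 (−1.75 with Caprin-1 and −0.79 with IgG); Ptprc, Itgam and S100a9 had none here. The other leukocyte markers with values, Csf1r and S100a8, were below 1 CPM in each library and higher in shCerS4 cells, Csf1r at 0.0504 CPM with IgG and 0 with Caprin-1 in shSCR cells against 0.712 and 0.811. Of 3 endothelial markers Kdr alone had values, at most 0.666 CPM. The part of these cell types in the S100a4 ratio was not tested.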

How the data were processed

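RNA immunoprecipitation libraries of polyadenylated RNA were made with a SMARTER mRNA kit from RNA harvested in Qiazol, per the labels' protocols. STAR and Partek were used with mm10, per the submitters' processing notes; versions and the counting step are not given in the sources used here. The deposited values are CPM per transcript, as every column has the same sum, that of CPM, although the table is named as counts. Each held an added 0.0001 CPM, which was taken off before transcripts were summed by symbol.

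Depth was estimated from the spacing of low CPM values. At under 40 CPM, 79.8% to 81.2% of gene values were whole reads to within 0.05. Why the remainder were not whole was not tested. Log2 ratios used estimated reads with 0.5 added, scaled to library totals. Intervals are exact conditional binomial ones, and for the difference of ratios a normal approximation. Past 2-fold means at least 2-fold with an interval off 0, for genes averaging 5 CPM or more. No significance test was made. The comparisons were shCerS4 over shSCR in each precipitate, Caprin-1 over IgG for either line, and the difference of the latter. Calculations were tested on simulated data (Python 3.11.15, pandas 2.3.3, scipy 1.17.1).

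The members, gene lists and rules were chosen with earlier results of these data known. Named besides the members were other S100 genes with values, from each list the gene with the highest mean and the 2 furthest from 0 between Caprin-1 precipitates (mean of at least 5 CPM), the 3 nearest profiles to S100a4 and S100a11, and the nearest neighbour. Promoter windows and gene positions are from RefSeq (GRCm38.p6). Alternatives were 3 other scalings, totals without the 50 most abundant genes, minimums of 1 and 20 CPM and none, 5 added reads, thinning to the lowest depth, the most abundant transcript alone, 2-fold without the interval, a 1.5-fold threshold, and log2(CPM + 1).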

Additional observations from a re-analysis of the deposited data

Results flagged for a closer look

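S100a1 stood out because its Caprin-1 over IgG ratio had opposite signs in the cell lines, with −0.27 [−0.42, −0.13] for shSCR and 0.25 [0.11, 0.39] for shCerS4. The difference of 0.52 [0.32, 0.72] rests on 1 library per group and was not tested over replicates. Under trimmed-mean scaling the shSCR value was −0.07 [−0.22, 0.07], so its interval no longer left 0, and the shCerS4 value was 0.38 [0.24, 0.52].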

How the results depend on the processing

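The members past 2-fold were S100a4 in both shCerS4 over shSCR comparisons and S100a11 in both Caprin-1 over IgG comparisons under every alternative tried, and no value past 2-fold changed sign. The count of members in shSCR cells moved from 1 to 3 (S100a6, S100a11 and S100a13) with trimmed-mean, upper-quartile and median-of-ratios scaling and to 5 with a 1.5-fold threshold. With that threshold it was 3 between Caprin-1 precipitates (S100a4, S100a11 and S100a13) and 1 for the difference of ratios (S100a13). The S100a4 ratio ranged from −2.11 to −1.96 with Caprin-1 and from −1.76 to −1.66 with IgG, and the S100a11 ratio from 1.52 to 1.74 in shSCR and 1.05 to 1.20 in shCerS4 cells. Of 280 member values under alternatives, 64 moved beyond their counting interval and 9 changed sign: 3 of S100a10 between Caprin-1 precipitates and the others of S100a16, which changed with the most abundant transcript alone or lay near 0. No paired analysis was possible because each group has 1 library. Depth limits S100a16, S100a14 and S100a8.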

Other observations

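At transcript level, 6 of the 7 members had 1 transcript each, and S100a16 had 3. The S100a16 transcript with the highest mean stood at 0.00693 CPM with IgG and 0.373 with Caprin-1 in shSCR cells, and at 2.03 and 1.86 CPM in shCerS4 cells. The other transcripts of S100a16 ran the opposite way, the larger of them at 1.62, 0.966, 6.65e-06 and 0.246 CPM, while the gene sum stayed between 2.03 and 2.96 CPM. These rest on 40 to 59 estimated reads per library, which the authors' quantification divided among transcripts, with no replicate. S100a14 had a like pattern, its leading transcript at 0.000213 and 0.00218 CPM in shSCR and 2.03 and 1.60 CPM in shCerS4 cells.

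S100pbp, which encodes a nuclear protein that binds S100P and is no S100 protein itself, stood at 61.7 CPM with IgG and 30.04 with Caprin-1 in shSCR cells, and at 73.6 and 34.9 CPM in shCerS4 cells. It was lower with Caprin-1 than IgG past 2-fold in both cell lines, at −1.04 [−1.17, −0.91] and −1.08 [−1.20, −0.95], on the other side of 0 from S100a4, S100a6, S100a10 and S100a11. S100a1 in shSCR cells (−0.27) and S100b in both cell lines (−4.04 and −2.13) lay below 0 as S100pbp did. S100b passed the minimum through the shSCR IgG library alone, so nothing is read from its values. The S100pbp gene span is 41.7 kb, longer than that of any of the 7 members. S100a3 has a like span of 42.4 kb. Its Caprin-1 over IgG ratios lay above 0, at 1.06 in shSCR cells (past 2-fold) and 0.81 in shCerS4 cells. The part of gene span in these ratios was not tested.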
